A study of Mus musculus with 62 samples.

Results

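The 10 genes described here, out of 53975 gene identifiers in each expression table, are markers of the subfields of the mouse hippocampus together with genes that were low in APP mice at 3 months. They were taken by gene symbol, and each symbol gave 1 row in each of the 31 long-RNA tables. Fibcd1, Wfs1 and Pou3f1 stand for CA1, Rgs14 and Amigo2 for CA2, and Prox1, Dsp and C1ql2 for the dentate gyrus. Islr2 and Tspan18 were selected on their low TPM in APP mice at 3 months, and that contrast is described here without a test. None of the 10 was taken as a CA3 marker, and CA3 is covered by a separate list of 8 genes.

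The study measured long RNA and short RNA in mouse hippocampus and in HT-22 cells, a mouse hippocampal cell line, and its 62 libraries include 17 long-RNA libraries of hippocampus and 14 of HT-22 cells. APP mice are labelled with the strain APP NL-G-F, a line in which the mouse App gene itself carries a humanised amyloid beta sequence with familial Alzheimer mutations, so that the mutated protein is made wherever App is normally made. There were 3 APP libraries at each of 3, 6 and 12 months. WT mice are labelled C57BL/6J, with 2 libraries at 3 months and 3 at each of 6 and 12 months. The labels name no treatment of the mice, and the tissue is labelled as hippocampus of the left and right side. Nothing in the labels says whether each library came from a separate animal, so p-values measure the spread between these libraries, which may in part be technical.

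The hippocampus passes information from dentate granule cells to CA3 pyramidal cells and on to CA1, with CA2 lying between CA3 and CA1. Each of these cell types keeps its own set of genes in the adult, and a marker gene is read here for one part of the dissected piece. Whether each marker is confined to that part was not tested. In RNA from whole tissue, fewer cells of a type and less RNA per cell cannot be told apart, and an unequal share of subfields in the dissected piece moves the same values.

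Relative depth, read as the ratio of Coverage to FPKM, ran from 1.42 to 3.04 over the mouse libraries. Values are given as scaled TPM, which is TPM (a relative transcript level per length) divided by a median of ratios factor of each library, and these factors ran from 0.693 to 1.47. Differences are given as log2 changes of scaled TPM plus a pseudocount of 1. The 6-month and 12-month comparisons also set libraries apart by sex-linked transcripts. All 9 APP libraries, and both from WT mice of 3 months, held Xist at 70.2 to 137 scaled TPM and the Y-linked Ddx3y at 0 to 0.0792. The 6 WT libraries of 6 and 12 months held Xist at 0.263 to 0.521 and Ddx3y at 18.7 to 28.0. Genotype and this difference cannot be told apart at 6 and 12 months.

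All 10 genes are protein-coding and have the same position on GRCm38 in GENCODE M21 as in the tables. The 250 bases before the start site are shown for 4 of them, because Fibcd1 and Islr2 were lower in all 3 APP libraries of 3 months than in each of the other 14 libraries, and C1ql2 and Dsp are both dentate markers. The sequences are from RefSeq on GRCm38.p6, run 5′ to 3′ on the strand of the gene, and carry in capitals each match to the GC box GGGCGG on either strand, a sequence bound by Sp family factors.
Fibcd1, chr2:31846006-31846255, minus strand: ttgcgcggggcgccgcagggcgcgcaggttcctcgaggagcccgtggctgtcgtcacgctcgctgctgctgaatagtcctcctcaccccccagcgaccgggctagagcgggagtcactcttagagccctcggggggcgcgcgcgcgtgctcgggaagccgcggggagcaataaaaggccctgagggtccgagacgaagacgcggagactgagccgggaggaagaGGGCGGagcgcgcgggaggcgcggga
Islr2, chr9:58204320-58204569, minus strand: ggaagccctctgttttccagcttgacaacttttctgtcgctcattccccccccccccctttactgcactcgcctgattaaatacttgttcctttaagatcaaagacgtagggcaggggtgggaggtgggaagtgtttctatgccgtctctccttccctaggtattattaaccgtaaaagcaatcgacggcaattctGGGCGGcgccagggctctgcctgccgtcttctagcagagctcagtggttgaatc
C1ql2, chr1:120340332-120340581, plus strand: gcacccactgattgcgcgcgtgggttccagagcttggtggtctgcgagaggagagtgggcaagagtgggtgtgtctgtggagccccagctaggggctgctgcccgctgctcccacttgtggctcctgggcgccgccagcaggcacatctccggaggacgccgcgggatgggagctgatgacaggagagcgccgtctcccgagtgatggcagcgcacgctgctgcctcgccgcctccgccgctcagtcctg
Dsp, chr13:38151044-38151293, plus strand: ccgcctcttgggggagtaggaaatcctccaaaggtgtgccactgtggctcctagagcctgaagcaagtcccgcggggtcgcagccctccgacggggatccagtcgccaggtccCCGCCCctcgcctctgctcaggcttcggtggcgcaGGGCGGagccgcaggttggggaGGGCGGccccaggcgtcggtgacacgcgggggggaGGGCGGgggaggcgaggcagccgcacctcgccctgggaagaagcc

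Windows of this kind were found for 7 of the 10 genes, all but Pou3f1, Rgs14 and Tspan18. A GC box occurred in 6 of the 7, against 32.7% of 32851 windows of the same length in the RefSeq table. Dsp held 4 matches, Fibcd1 and Islr2 held 1 each, and C1ql2 was the window without one. The E-box CANNTG, searched on both strands, occurred in 3 of the 7 windows against 66.2% of all windows, and in C1ql2 once. The AP-1 letters TGANTCA occurred in 0 of the 7 windows, against 6.7% of all. Fibcd1 had 71.6% G and C, C1ql2 68.8%, Dsp 72.4% and Islr2 52.4%, where the median over all windows was 52.4%. Wfs1 had 69.6%, Prox1 64.8% and Amigo2 84.0%. The shares over all windows were not matched for G and C content. The windows of Wfs1 and Prox1 belong to start sites 223 and 113 bases from the gene start listed with the expression values. The Dsp gene overlaps Gm10129, which is annotated on the opposite strand.

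Over the 17 mouse libraries the mean levels ranked as follows. Wfs1 stood at 28.7 scaled TPM, Rgs14 at 23.9, Prox1 at 21.9, Islr2 at 20.6, C1ql2 at 19.5 and Fibcd1 at 18.9. Pou3f1 followed at 13.3, and Amigo2 at 7.07, Dsp at 6.58 and Tspan18 at 6.08 were the lowest. Each neighbouring pair in this order lay closer than the larger SD of the pair, except Pou3f1 and Amigo2. The coefficient of variation over the 17 libraries was smallest for Amigo2 (16.9%) and largest for Tspan18 (41.2%) and C1ql2 (37.5%).

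**Figure D1:**
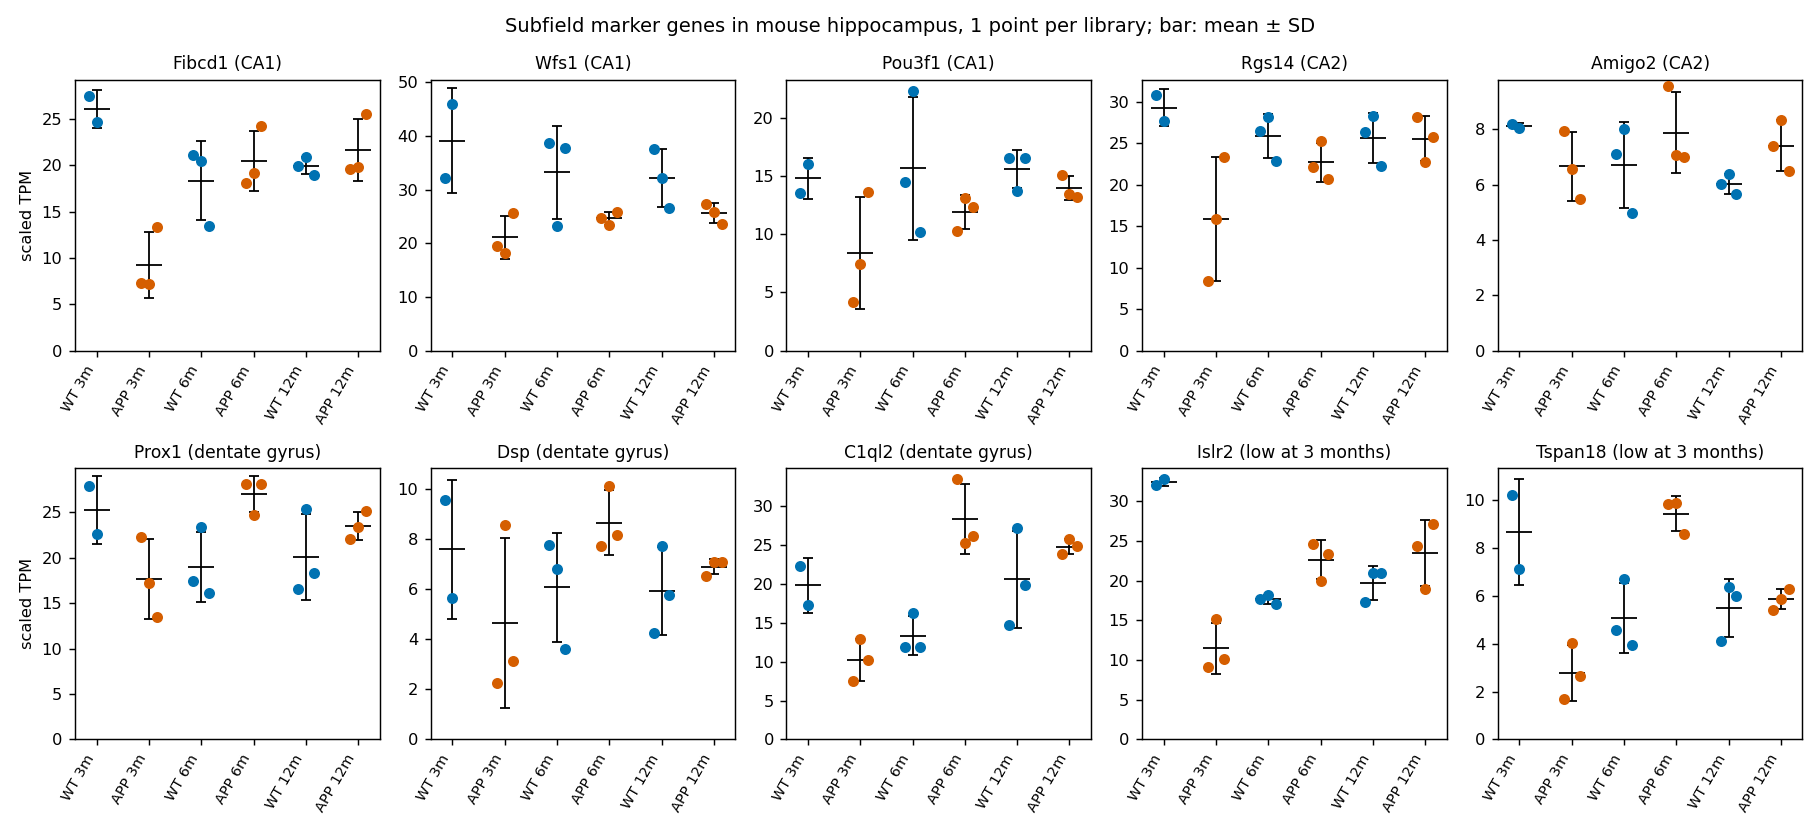
Scaled TPM (vertical axis, from 0) of the 10 genes in the 17 mouse hippocampus libraries, by genotype and age, with APP in orange, WT in blue and black bars for the mean ± SD of each group. All 3 APP libraries of 3 months lie below both WT libraries of that age for Fibcd1, Wfs1, Rgs14, Amigo2, Prox1, C1ql2, Islr2 and Tspan18, and at 6 months the 3 APP libraries lie above the 3 WT libraries for C1ql2, Prox1, Islr2 and Tspan18.

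Fibcd1 (ENSMUSG00000026841, chromosome 2, 31813290 to 31846005, minus strand) encodes a membrane receptor that binds acetylated groups such as chitin, and in hippocampus it marks CA1. At 3 months the 3 APP libraries held 7.26, 7.15 and 13.4 scaled TPM and the WT libraries 27.5 and 24.6. At 6 months APP libraries held 18.1, 19.1 and 24.2 against 21.1, 20.4 and 13.4 in WT, and at 12 months 19.6, 19.8 and 25.5 against 20.0, 20.9 and 19.0. Only the young APP group stood apart: its highest library, at 13.37, was just under the lowest of the other 14 libraries, at 13.40. The APP mean at 3 months was 9.26 ± 3.56 (SD, n = 3) against 26.1 ± 2.02 (SD, n = 2), a ratio of 0.355 and a log2 change of -1.45. At 6 and 12 months the change was 0.17 (SE 0.21, limma adjusted p = 0.744) and 0.10 (SE 0.21, limma adjusted p = 0.995).

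Wfs1 (ENSMUSG00000039474, chromosome 5, 36966104 to 36989205, minus strand) encodes wolframin, a protein of the endoplasmic reticulum membrane that is abundant in CA1 pyramidal cells. APP libraries of 3 months held 19.5, 18.1 and 25.7 scaled TPM against 32.2 and 46.0 in WT, a log2 change of -0.85. The APP libraries of 6 months, at 24.8, 23.4 and 25.8, lay close together, while WT libraries at 38.6, 23.2 and 37.8 did not. The groups overlapped there through WT replicate 2, and the change was -0.38 (SE 0.19, limma adjusted p = 0.336). At 12 months APP libraries held 27.3, 25.8 and 23.6 and WT libraries 37.5, 32.2 and 26.6, with a change of -0.31 (SE 0.19, limma adjusted p = 0.852). On scaled TPM the mean of Wfs1 was lower in APP than in WT at each of the 3 ages.

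Pou3f1 (ENSMUSG00000090125, chromosome 4, 124656807 to 124660655, plus strand), a POU-domain transcription factor of CA1 pyramidal cells and of myelinating Schwann cells, was spread widely in the young APP group. In APP at 3 months it stood at 4.16, 7.47 and 13.6 scaled TPM, and WT at 13.5 and 16.0, so that APP replicate 3 reached the WT range. The change was -0.87 at 3 months, -0.31 (SE 0.30, limma adjusted p = 0.659) at 6 months and -0.15 (SE 0.30, limma adjusted p = 0.994) at 12 months. A single-exon gene, it overlaps Gm2164, which was listed at 0 to 3.63 TPM, and whether counting used strand is not given in the sources.

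Among the CA2 genes, Rgs14 (ENSMUSG00000052087, chromosome 13, 55369732 to 55384687, plus strand) encodes a scaffold that regulates G protein signalling and limits synaptic plasticity in CA2. APP libraries of 3 months held 8.41, 15.9 and 23.4 scaled TPM, below the WT libraries at 30.9 and 27.7, and the change was -0.95. Values within that APP group were widely spread, and replicate 3 was inside the range of the older libraries. From 6 months on, the 12 libraries lay between 20.7 and 28.3. The change was -0.18 (SE 0.24, limma adjusted p = 0.763) at 6 months and 0.00 (SE 0.24, limma adjusted p = 0.999) at 12 months.

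Amigo2 (ENSMUSG00000048218, chromosome 15, 97244125 to 97247287, minus strand), a cell adhesion protein and CA2 marker, had the smallest 3-month change of the 10. The APP mean at 3 months was 6.66 ± 1.25 (SD, n = 3) and the WT mean 8.11 ± 0.10 (SD, n = 2), a change of -0.26. At 12 months the APP libraries, at 7.39, 8.33 and 6.499 scaled TPM, all lay above the WT libraries, at 6.02, 6.38 and 5.66. That difference was 0.26 on the log2 scale (SE 0.17, limma adjusted p = 0.868). At 6 months it was 0.21 (SE 0.17, limma adjusted p = 0.571), with overlapping groups. On the opposite strand, Pced1b overlaps Amigo2 and was listed at 0.896 to 3.27 TPM.

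C1ql2 (ENSMUSG00000036907, chromosome 1, 120340582 to 120343174, plus strand) is a secreted C1q-like protein that dentate granule cells release at mossy fibre synapses. APP libraries of 3 months held 7.45, 12.9 and 10.2 scaled TPM and WT libraries 22.3 and 17.3. APP libraries of 6 months held 33.5, 25.3 and 26.1 and WT libraries 11.9, 16.2 and 11.9. The order of the genotypes was thus opposite at these ages, with no overlap at either, and the 3 APP libraries of 6 months included the highest value of all 17. At 12 months APP libraries stood at 23.8, 25.7 and 24.8, within the WT span of 14.7, 27.1 and 19.9. The change was -0.91 at 3 months, 1.03 (SE 0.21, limma adjusted p = 0.0278) at 6 months and 0.30 (SE 0.21, limma adjusted p = 0.890) at 12 months. C1ql2 rose from a WT mean of 13.3 ± 2.48 (SD, n = 3) to an APP mean of 28.3 ± 4.54 (SD, n = 3) at 6 months.

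That call rested on all but 1 of the 6 libraries compared. Without APP replicate 1, 2 or 3 the limma adjusted p was 0.0703, 0.0662 and 0.0746, without WT replicates 1 and 3 it was 0.109 and 0.0632, and without WT replicate 2 it was 0.0338. The change stayed between 0.91 and 1.17 over these fits. The adjusted p was 0.0670 with no filter on low values and 0.0683 with the 6 libraries alone.

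Prox1 (ENSMUSG00000010175, chromosome 1, 190118035 to 190170714, minus strand) is the homeobox factor that gives granule cells their identity. APP libraries of 3 months held 22.3, 17.2 and 13.5 scaled TPM against 27.9 and 22.6 in WT, a narrow gap without overlap. At 6 months APP held 28.1, 24.7 and 28.1 and WT 17.4, 23.3 and 16.1, again with no overlap and in the other direction. The 6-month change was 0.50 (SE 0.18, limma adjusted p = 0.174) and the 12-month change 0.24 (SE 0.18, limma adjusted p = 0.909). Prox1os and Gm28172 overlap Prox1 on the opposite strand and were listed at no more than 3.75 and 3.61 TPM.

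Dsp (ENSMUSG00000054889, chromosome 13, 38151294 to 38198577, plus strand) encodes desmoplakin, a plaque protein of desmosomes that is strong in granule cells. Its 3-month values were 2.263, 8.55 and 3.12 scaled TPM in APP and 9.55 and 5.64 in WT. Here APP replicate 2 lay among the WT libraries while the other 2 were the lowest of all 17. The change was -0.73 at 3 months, 0.50 (SE 0.34, limma adjusted p = 0.503) at 6 months and 0.22 (SE 0.34, limma adjusted p = 0.986) at 12 months, with the largest SE of the 10 genes. Gm10129, which overlaps Dsp on the opposite strand, was listed at 0 to 5.82 TPM.

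Islr2 (ENSMUSG00000051243, chromosome 9, 58196297 to 58204319, minus strand), also called Linx, is a membrane protein with leucine-rich repeats that takes part in axon extension and guidance. The APP libraries of 3 months, at 9.15, 15.1 and 10.2 scaled TPM, were below each of the other 14 libraries, of which the lowest held 17.1. The WT libraries of 3 months, at 32.0 and 32.7, were in turn above each of the others, since APP libraries of 6 and 12 months reached at most 27.1. The 3-month ratio of 0.354, a log2 change of -1.45, therefore set the lowest group against the highest. At 6 months APP libraries held 24.7, 19.9 and 23.3 and WT libraries 17.7, 18.2 and 17.1, with a change of 0.34 (SE 0.16, limma adjusted p = 0.307). The 12-month change was 0.23 (SE 0.16, limma adjusted p = 0.885). Islr, a neighbour on the same strand that overlaps Islr2, was listed at 2.54 to 9.97 TPM.

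Tspan18 (ENSMUSG00000027217, chromosome 2, 93201760 to 93334505, minus strand) is a tetraspanin, one of a family of membrane proteins that organise other membrane proteins. APP libraries of 3 months held 1.71, 4.04 and 2.64 scaled TPM and WT libraries 10.2 and 7.12, the smallest ratio of the 10 genes at 0.322. At 6 months APP libraries held 9.87, 9.88 and 8.59 against 4.56, 6.72 and 3.94 in WT. Tspan18 thus crossed over as C1ql2 did, and its 6-month change of 0.81 (SE 0.22) had a limma adjusted p of 0.0801. By 12 months APP libraries stood at 5.43, 5.89 and 6.27 and WT libraries at 4.10, 6.37 and 6.00, and the change was 0.10 (SE 0.22, limma adjusted p = 0.995).

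Read together at 3 months, all 10 genes had a lower mean in APP than in WT, with log2 changes from -1.45 to -0.26 and a median of -0.89. In 8 of the 10 the 3 APP libraries lay below both WT libraries, the exceptions being Pou3f1 and Dsp, where 13.4% of 17840 tested genes showed that order, and 49.4% of tested genes had a change below 0. Since these genes were picked with this contrast in view, the counts describe the choice and carry no test. Each of the 10 kept its sign under each of the 28 alternatives run, and the range for Fibcd1 was -1.72 to -1.31, for Islr2 -1.65 to -1.31 and for Tspan18 -1.66 to -1.14. With libraries scaled to 8 genes of all neurons, in place of all genes, the 10 also stayed lower in APP.

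At 6 months 1 of the 10 genes, C1ql2, was called by limma at an adjusted p below 0.05, where 1.66% of tested genes were called and 0.42% were called higher. In 4 of the 10, C1ql2, Prox1, Islr2 and Tspan18, the APP libraries lay above all WT libraries, against 11.1% of tested genes, and in 0 of the 10 did they lie below, against 10.1%. The 3 dentate genes had changes of 0.50 to 1.03. The CA1 genes Wfs1 and Pou3f1 had changes of -0.38 and -0.31, and Fibcd1 had 0.17. On TPM as deposited, without scaling, 58.0% of all genes were called at 6 months and the median of all genes shifted by 0.60, so the 6-month values, those of marker lists included, are given relative to that shift. Before scaling, Wfs1, Pou3f1 and Rgs14 had 6-month values of 0.31, 0.36 and 0.51, opposite in sign to their scaled ones, with a limma adjusted p of 0.0495 for Rgs14, and C1ql2 had 1.71.

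At 12 months 0 of the 10 were called by limma, against 0.443% of tested genes, with changes from -0.31 (Wfs1) to 0.30 (C1ql2) and adjusted p from 0.852 to 0.999. At an unadjusted p under 0.05 there were also 0 of the 10, as the smallest was 0.131, where 1256 of the 17840 tested genes passed. Amigo2 was the only one of the 10 whose APP libraries all lay above the WT libraries, against 8.67% of tested genes, and in 0 of the 10 did they all lie below, against 6.97%.

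**Figure D2:**
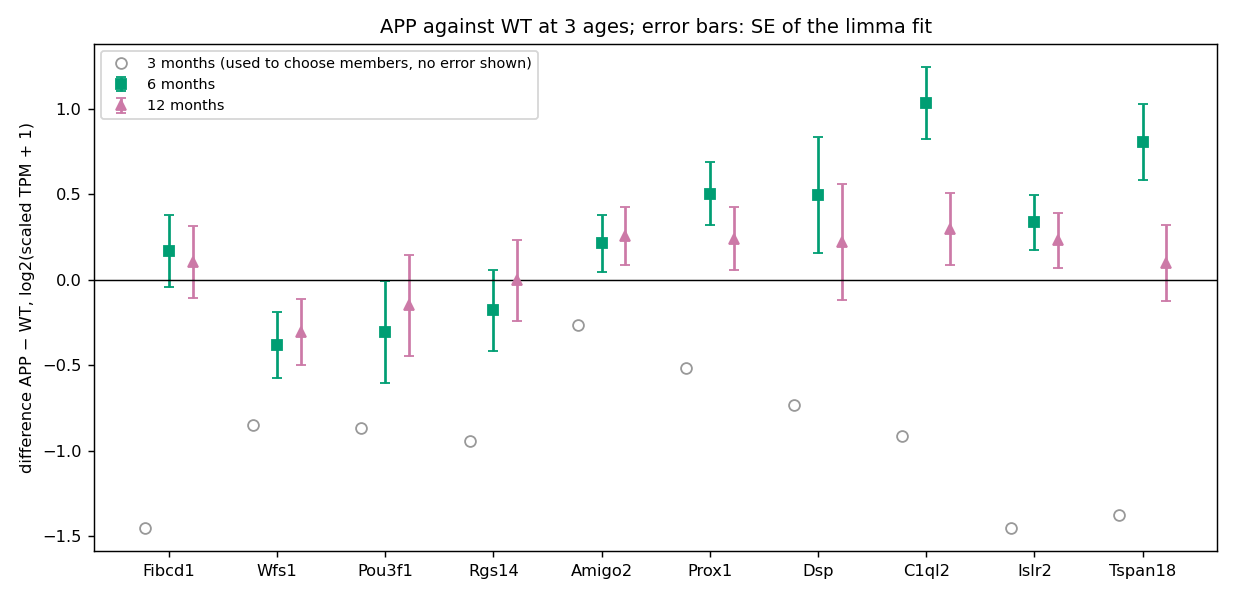
Difference between APP and WT on the log2(scaled TPM + 1) scale (vertical axis) for each of the 10 genes at 3 months (open circles, no error shown because this contrast chose members), 6 months (green squares) and 12 months (purple triangles), with SE bars from the limma fit. All open circles lie below 0, from -1.45 to -0.26, and the 6-month value of C1ql2 lies at 1.03.

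Within a genotype, 0 of the 10 genes were called between 6 and 12 months. In APP 0.538% of all tested genes were called for that step, and in WT 0.0%, with 1216 WT genes at an unadjusted p under 0.05. Tspan18 had the largest APP value, -0.61 (SE 0.22, limma adjusted p = 0.309, unadjusted p = 0.0166), as its libraries went from 8.59 to 9.88 scaled TPM down to 5.43 to 6.27 without overlap. C1ql2 had the largest WT value, 0.56 (SE 0.21, limma adjusted p = 0.688, unadjusted p = 0.0181). The difference between the genotypes in this step was -0.74 for C1ql2 (SE 0.30, limma adjusted p = 0.417) and -0.71 for Tspan18 (SE 0.32, limma adjusted p = 0.465), and 0.0224% of tested genes were called for it. The other 8 genes had differences from -0.27 to 0.18 in this step, each smaller than its SE or close to it.

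A contrast of dentate against CA1 genes within a library does not depend on how libraries are scaled to one another. The mean log2 scaled TPM of Prox1, Dsp and C1ql2 minus that of Fibcd1, Wfs1 and Pou3f1 was 0.22, 0.04 and -0.12 in the APP libraries of 6 months and -0.96, -0.68 and -0.96 in WT. These groups did not overlap, with means of 0.04 ± 0.17 (SD, n = 3) and -0.87 ± 0.16 (SD, n = 3). At 12 months APP libraries stood at -0.41, -0.23 and -0.28, inside the WT values of -1.19, -0.26 and -0.66 except at their upper end. At 3 months APP libraries ran from -1.15 to 0.33 and WT libraries were at -0.34 and -1.01, so that the balance of dentate and CA1 genes was spread most widely in the young APP group. No test is given for this score, which was built from genes already chosen.

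**Figure D3:**
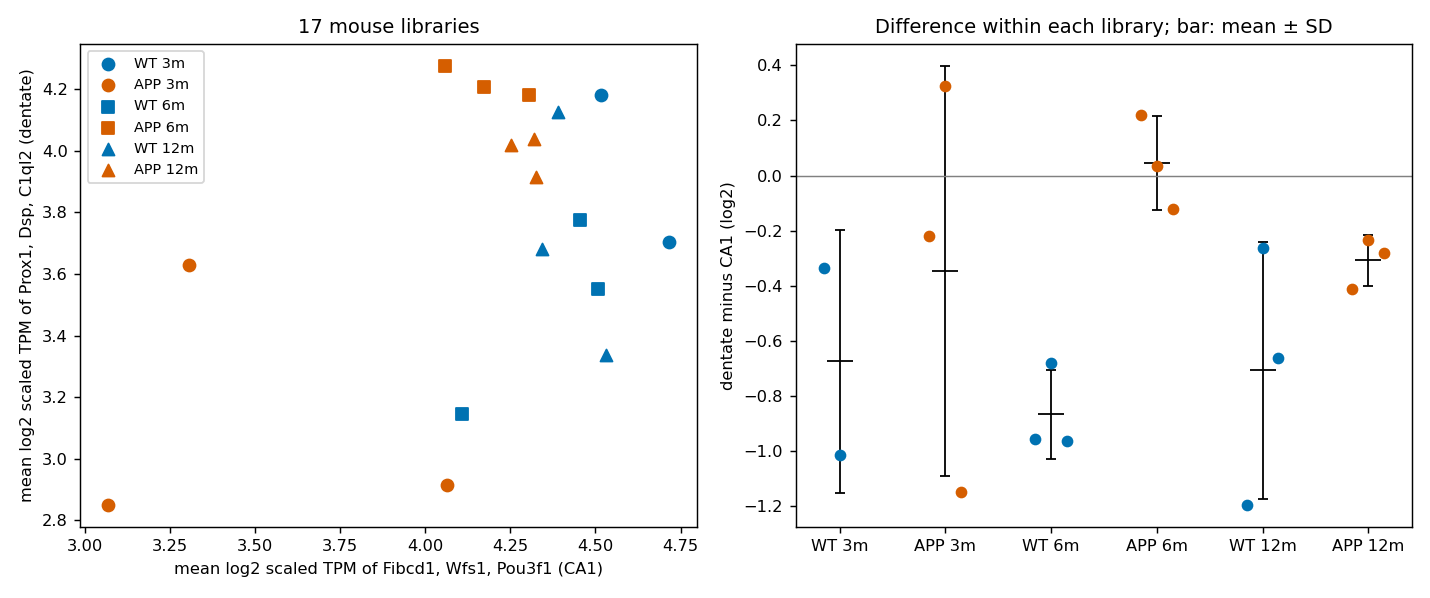
Left, mean log2 scaled TPM of the 3 dentate genes (vertical) against that of the 3 CA1 genes (horizontal) in the 17 mouse libraries, with circles for 3, squares for 6 and triangles for 12 months, APP in orange and WT in blue. Right, the dentate minus CA1 difference in each library with the mean ± SD of its group, where APP at 6 months (0.04 ± 0.17) and WT at 6 months (-0.87 ± 0.16) do not overlap.

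Other marker genes of the same subfields, listed apart from the 10, gave the following. These lists, and those of other regions below, were chosen with earlier results of these data known. Their counts and adjusted p are therefore a description and no independent test. At 3 months all 6 other CA1 genes were lower in APP (median -0.55, against 0.00 over all genes), 0 of them called where 0.303% of genes were. The serine protease inhibitor Spink8 had -1.16 (limma adjusted p = 0.166) and Lefty1, a secreted antagonist of Nodal signalling, had -0.98 (limma adjusted p = 0.239). Of 8 other dentate genes 6 were lower and 2 higher (median -0.29), and 0 were called, with the lactase gene Lct at -1.04 (limma adjusted p = 0.209). The 4 tested CA2 genes divided evenly, with the calmodulin-binding Pcp4 at 1.57 (limma adjusted p = 0.150) and the neurotrophin Ntf3 at -1.06 (limma adjusted p = 0.0790). Pcp4 ran from 157.8 to 572.7 scaled TPM in APP and from 71.72 to 98.09 in WT.

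The 8 CA3 genes also divided evenly (median -0.07). One of them, Coch, an extracellular matrix protein, rose by 1.21 (limma adjusted p = 0.0344), from 4.21 ± 0.27 scaled TPM (SD, n = 2) to 11.1 ± 1.99 (SD, n = 3). Calls at 3 months depended on the fit. Over all genes, 54 were called in this fit, 4 with only the libraries compared and 71 on TPM as deposited. Whether Coch stayed called in other fits is not given. The kainate receptor subunit gene Grik4 had -0.71 (limma adjusted p = 0.103). The 8 genes common to all neurons were 5 higher and 3 lower, with a median of 0.01 and 0 called, and their summed level was 1811 to 2322 scaled TPM in APP and 1959 to 2143 in WT.

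Markers of neighbouring regions moved with the 3-month difference. All 6 thalamus genes were higher in APP (median 1.62), all 7 striatum genes (median 1.12) and all 8 oligodendrocyte genes (median 0.47), and 0 of these 21 were called. The summed thalamus level was 528, 186 and 67.6 scaled TPM in APP replicates 1, 2 and 3 and 48.2 and 61.0 in WT. The summed striatum level was 260, 89.7 and 65.2 against 50.7 and 57.0. The sum of the 6 other CA2 genes, Pcp4 among them, had the same replicate order, at 620.7, 198.4 and 176.3 against 104.1 and 132.7. In replicate order, the sum of the 6 other CA1 genes was 84.5, 114 and 155 in APP, against 185 and 132 in WT, so that APP replicate 3 lay inside the WT range. APP replicate 1, the highest in thalamus and striatum genes, was the lowest of the 3 in Rgs14, Pou3f1, C1ql2, Islr2, Tspan18 and Dsp, the highest in Prox1 and Amigo2, and between the others in Wfs1 and Fibcd1.

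In the thalamus list Prkcd, a protein kinase C of thalamic relay cells, was at 11.5 to 190 scaled TPM in APP and 9.65 to 10.8 in WT. In the striatum list the enkephalin precursor Penk had a change of 1.65 (limma adjusted p = 0.167) and the adenosine receptor Adora2a 1.62 (limma adjusted p = 0.171). In the oligodendrocyte list Mag, a myelin adhesion protein, had 0.51 (limma adjusted p = 0.324). Of the 6 interneuron genes 3 were higher, and Pvalb, a calcium-binding protein of fast-spiking interneurons, rose by 1.15 (limma adjusted p = 0.0417). The limit given for Coch holds for Pvalb as well. The 4 tested neocortex genes divided evenly, with Fezf2 at -1.05 (limma adjusted p = 0.273) and Rorb at 0.88 (limma adjusted p = 0.109). The part of these other regions in the low 3-month values was not tested.

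**Figure D4:**
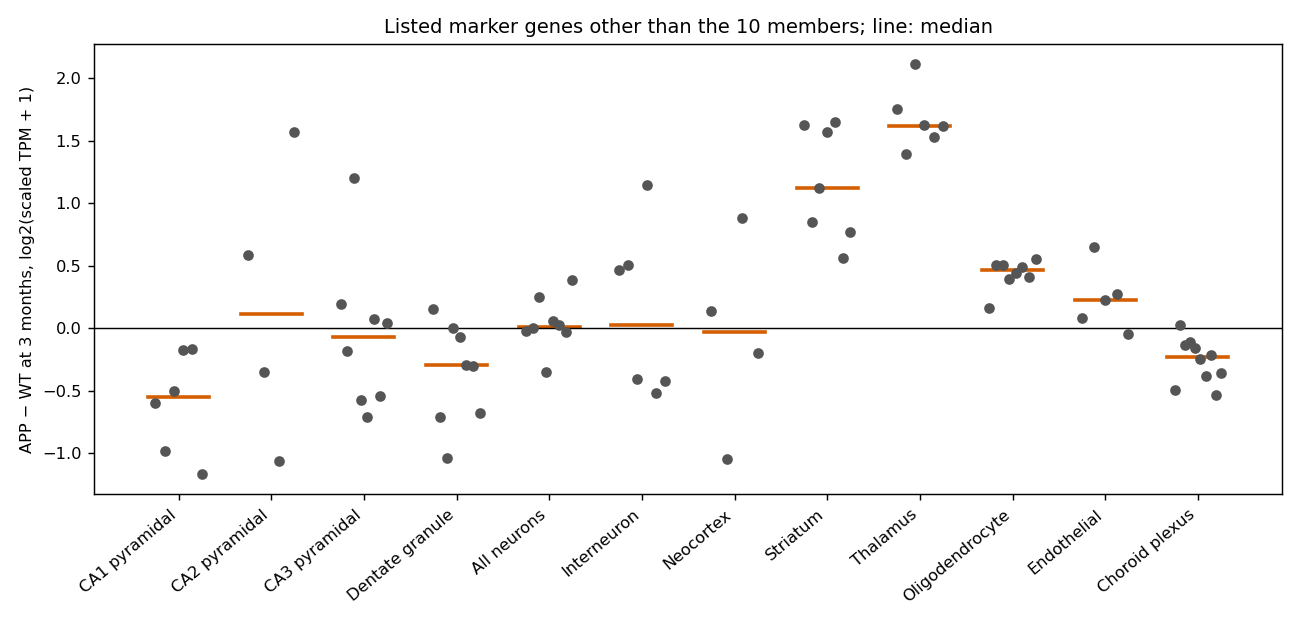
APP minus WT at 3 months on the log2(scaled TPM + 1) scale (vertical axis) for listed marker genes other than the 10, 1 point per gene, with an orange line at the median of each list. The 6 CA1 genes all lie below 0 (median -0.55), and the 6 thalamus and 7 striatum genes all lie above 0 (medians 1.62 and 1.12).

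At 6 months 7 of the 8 other dentate genes were higher in APP (median 0.42) and 0 were called. The transcription factor Glis3 had 0.58 (limma adjusted p = 0.199) and Stxbp6, a regulator of vesicle fusion, 0.53 (limma adjusted p = 0.0996), with 33.6 to 37.2 scaled TPM in APP and 21.3 to 28.3 in WT. The summed level of the 8 was 136, 142 and 129 scaled TPM in the APP libraries and 103, 117 and 89.2 in WT, without overlap. All 6 other CA1 genes were lower (median -0.30), 0 of them called, with Spink8 at -0.67 (limma adjusted p = 0.295) and Mpped1 at -0.47 (limma adjusted p = 0.742). Their summed levels overlapped, at 146.6, 150 and 180.5 scaled TPM in APP and 224.2, 187.8 and 177.1 in WT. Of the 8 CA3 genes 6 were higher (median 0.20), with Bok at 0.58 (limma adjusted p = 0.340) and Cdh24 at 0.41 (limma adjusted p = 0.230). The CA3 sums, like the dentate sums, did not overlap, at 166.3, 150.4 and 158.9 scaled TPM in APP and 144.3, 146.1 and 131.2 in WT.

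Choroid plexus genes, from the tissue that lines the ventricle beside the hippocampus, moved with the 6-month difference. All 10 were lower in APP (median -1.04) and 0 were called, with the thyroxine carrier Ttr at -2.35 (limma adjusted p = 0.238) and the folate receptor Folr1 at -2.14 (limma adjusted p = 0.194). Their summed level was 1207, 112 and 825 scaled TPM in APP and 1446, 1771 and 1725 in WT. The 6 thalamus genes were all higher (median 0.38), with a sum of 145, 45.01 and 44.7 in APP and 46.1 to 50.2 in WT. The part of choroid plexus and thalamus in the 6-month values was not tested.

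At 12 months 6 of the 8 other dentate genes were higher in APP (median 0.13) and 2 of the 6 CA1 genes (median -0.06), and 0 of either list were called. The changes of largest size were 0.33 for Plk5 (limma adjusted p = 0.903) and 0.24 for Spink8 (limma adjusted p = 0.975). Choroid plexus genes were now all higher (10 of 10, median 0.90, 0 called), as were the 5 endothelial genes (median 0.33, 0 called). Between 6 and 12 months in APP, all 8 dentate genes other than the 3 had a lower value (median -0.23), and 0 were called.

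How the 10 genes varied together was described over the 17 libraries, which share their scaling and their groups, so no p is given. The 45 pairs had a median Pearson r of 0.52, from -0.17 (Wfs1 with Amigo2) to 0.89 (Pou3f1 with Rgs14). The 3 pairs within the dentate genes ran from 0.57 to 0.74 and those within the CA1 genes from 0.46 to 0.78. Without the 3 APP libraries of 3 months, the dentate pairs ran from 0.61 to 0.84 over 14 libraries, whereas the CA1 pairs ran from -0.02 to 0.29. CA1 with dentate pairs then ran from -0.64 to 0.56, with a median of -0.18. Fibcd1 was positive with Prox1 (0.56), Dsp (0.55) and C1ql2 (0.29), while Wfs1 and Pou3f1 were negative with each of these dentate genes. Thus the dentate genes tracked each other in either set of libraries. The CA1 genes did so with the young APP libraries included and not without them. The 10 genes were picked with the 3-month contrast in view, so r over all 17 libraries in part describes that choice. The r values of both sets of libraries include differences between groups. With group means removed, over the 17 libraries, the dentate pairs stood at 0.24, 0.41 and 0.68. The CA1 pairs then stood at -0.02, 0.10 and 0.69, so the ranges overlapped. Tspan18, not chosen as a dentate marker, had an r of 0.88 with Prox1, 0.78 with Dsp and 0.71 with C1ql2 in the 14 libraries. With group means removed, over the 17 libraries, these were 0.31, 0.84 and 0.88.

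**Figure D5:**
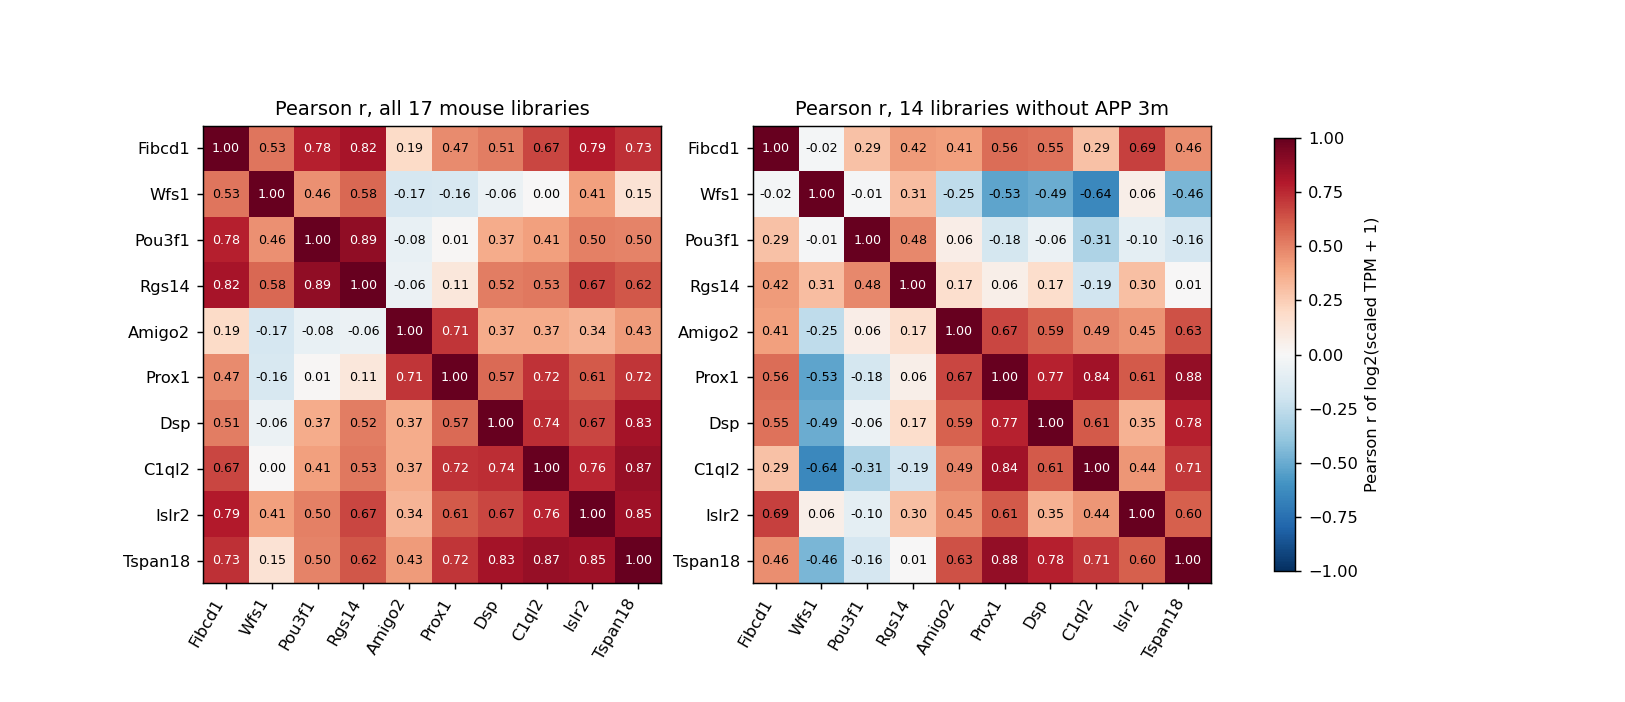
Pearson r of log2(scaled TPM + 1) between the 10 genes over all 17 mouse libraries (left) and over the 14 libraries without APP at 3 months (right), from blue (-1) to red (1). The block of Prox1, Dsp, C1ql2 and Tspan18 is positive on both sides. On the right Wfs1 is negative against the dentate genes, down to -0.64 with C1ql2, while Fibcd1 is positive, up to 0.56 with Prox1.

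Among all 17839 other tested genes, those with the pattern most like Fibcd1 over the 17 libraries were Krt73 (r = 0.948), St6galnac5 (0.945), Camkv (0.935), Kit (0.931) and Ust (0.930). For Rgs14 they included 2010300C02Rik (0.941), Camkv (0.929), Neurod6 (0.929) and 3300002P13Rik (0.918), and Camkv, a pseudokinase of the calmodulin kinase family, stood in both lists. For Islr2 they were Grik4 (0.897), Amer3 (0.888), Nrp2 (0.888), Orai3 (0.883) and Wnt7b (0.881). For C1ql2 they were the immediate-early gene Jun (0.934), the calcium channel gene Cacna1h (0.915), Stxbp6 (0.909), Nrp2 (0.907) and Btbd9 (0.906). Nrp2, a receptor for semaphorins, was near both Islr2 and C1ql2. Over these 17 libraries Tspan18 ranked 16 for Islr2 (0.847) and 20 for C1ql2 (0.868), closer than any other of the 10 to either. Islr2 and Tspan18 were both selected on low TPM in the APP libraries of 3 months, which are among the 17. Without those libraries Islr2 had an r of 0.60 with Tspan18, 0.69 with Fibcd1 and 0.61 with Prox1. C1ql2 then had 0.71 with Tspan18 and 0.84 with Prox1.

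In HT-22 cells most of these genes were listed at 0. Per the labels these 14 libraries are of cells that received locked nucleic acid oligonucleotides (LNA) during 24 h, the one against Hsf1 at 150 nM and the scramble given as 50 uM. The cells next received peptide, 30 uM of amyloid beta 1-42 or of its reverse. Prox1, Dsp, C1ql2 and Tspan18 were listed at 0 in 14 of 14 libraries, Pou3f1 and Rgs14 in 13 and Fibcd1 in 11, with a highest value of 0.200 TPM for Fibcd1. Islr2 was listed at 0 in 3 and reached 1.10 TPM. Of the 8 genes common to all neurons, Snap25, Syt1, Rbfox3 and Nefl were listed at 0 in each of these libraries too, against a median of 760 TPM for Snap25 in the mouse libraries. Map2 and Stmn2 had a median of 0 and reached 0.0307 and 0.352 TPM, while Eno2 lay between 3.86 and 12.0 TPM and Tubb3 between 1.14 and 7.16 TPM.

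Wfs1 and Amigo2 were the exceptions among the 10, with values above 0 in all 14 HT-22 libraries. Wfs1 lay between 7.07 and 16.3 TPM, where hippocampus had 18.2 to 56.3. Amigo2 lay between 4.55 and 24.4 TPM, where hippocampus had 4.20 to 11.8. Scaled within the cell line, Amigo2 stood at 14.2 ± 7.63 (SD, n = 4) for amyloid beta and 10.1 ± 3.00 (SD, n = 4) for the reverse peptide under scramble LNA. In the libraries labelled anti-Hsf1 it stood at 8.07 ± 1.05 (SD, n = 3) for amyloid beta and 8.97 ± 1.13 (SD, n = 3) for the reverse peptide. Wfs1 was even across these groups, with means from 11.4 to 11.9 scaled TPM and SDs from 0.58 to 1.53.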

How the data were processed

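Long RNA of mouse hippocampus and HT-22 cells was read from 1 deposited gene table per library. Each table holds TPM, FPKM and Coverage by gene, per the file headers. TPM, as deposited by the authors, summed to 999823 to 999893 in each mouse library. FPKM and the Coverage signal, as deposited by the authors, served only to read relative depth. Library preparation was rRNA-depleted, per the labels' protocols. The submitters' processing notes name HISAT2 2.1.0, StringTie 1.3.4d, cutadapt 1.18 and the builds mm10 and GRCm38 without roles. These units do not give reads per gene, and a count model was therefore not fitted.

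TPM was summed per gene identifier and divided by a median of ratios factor, computed over the 17 mouse libraries and separately over the 14 HT-22 libraries. The mouse libraries entered 1 limma 3.58.1 fit (R 4.3.3; trend, robust) of 6 groups on log2(scaled TPM + 1), over the 17840 genes whose mean TPM reached 1, with Benjamini-Hochberg adjustment over all of them and a threshold of 0.05. This scale understates the change of low genes. All 10 members passed the filter. On simulated data with the 12-month groups, 71% of changes of log2 1 and 94% of changes of log2 2 were called, among 17840 genes with 100 changed at each size.

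The 10 genes and the marker lists were chosen with earlier results of these data known. The text names all 10, from each list the genes called or else up to 2 of largest change, and the 5 genes most like Fibcd1, Rgs14, Islr2 and C1ql2. Of the genes this rule picks, 2 are not reported here. Alternatives covered scaling, pseudocount, low-value filter, libraries fitted, array weights, replicate block and each library left out; 2 further scalings, to protein-coding and to neuronal genes, were chosen after seeing the data. Python 3.11.15 was used for summaries. Short-RNA libraries were not used here.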

Additional observations from a re-analysis of the deposited data

Results flagged for a closer look

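Prox1, C1ql2, Islr2 and Tspan18 stood out because every APP library lay below every WT library at 3 months and above every WT library at 6 months, with 6-month log2 changes of 0.5032, 1.0331, 0.3358 and 0.8068. Amigo2 stood out because every APP library lay below every WT library at 3 months and above at 12 months, with overlap at 6 months, where the change was 0.2130. The difference between ages was not tested for these 5 genes, since the 3-month libraries had been used to choose members. Of all tested genes, 13.4% had every APP library below every WT library at 3 months. At 6 months 11.1% had every APP library above every WT library, and at 12 months 8.67%. The share with opposite orders at different ages is not given. WT libraries of 6 and 12 months differed from all other libraries in Xist and Ddx3y, and those of 3 months did not. Genotype and this difference cannot be told apart at the later ages. In HT-22 cells given reverse peptide and scramble LNA, 1 of the 4 libraries held Amigo2 at 14.5652 scaled TPM and lay apart from the other 3; chance sets about 1 in 20 groups apart in this way.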

How the results depend on the processing

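The 10 genes kept their sign at 3 months under all 28 alternatives. At 6 months 7 calls were lost, all for C1ql2, and 8 gained, 1 of them (Rgs14 on TPM as deposited) with the opposite sign. No replicate block is implied by the labels, as libraries share only a number. The 40 same-numbered pairs had correlations of deviations from -0.146 to 0.228 (median -0.007). The 80 pairs with different numbers had -0.188 to 0.171 (median -0.008). With the replicate block, calls over all genes were 62 at 3 months, 307 at 6, 68 at 12, 70 between ages in APP and 0 in WT, and C1ql2 kept an adjusted p of 0.0283.

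Counts of genes called over all genes moved as follows, and the cause was not tested. At 3 months 54 became 34 with no filter, 4 with only the libraries compared, 15 with array weights and 23 scaled to neuronal genes. At 6 months 297 became 10339 on TPM as deposited, 115 with no filter, 37 with only the libraries compared and 151 scaled to neuronal genes. At 12 months 79 became 50 with a filter at a mean TPM of 5 and 151 with array weights. Between 6 and 12 months in APP, 96 became 26 on TPM as deposited, 62 with quantile normalisation, 42 with a pseudocount of 0.1, 1 with only the libraries compared, 250 with array weights and 62 scaled to neuronal genes. In WT 0 became 2 with no filter and 1 with only the libraries compared. For the difference between genotypes in that step, 4 became 0 on TPM as deposited, 7 with a filter at 5 TPM, 7 with array weights and 8 with the replicate block. With each library left out in turn the counts ran from 7 (without WT replicate 2 of 3 months) to 376 (without APP replicate 3 of 3 months), from 66 to 515 at 6 months, from 25 to 102 at 12 months, from 1 to 125 between ages in APP, from 0 to 4 in WT and from 0 to 46 for the difference. Groups left with 1 library were assumed to vary like the others.

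Some values not called in the fit described changed sign. On TPM as deposited, the 6-month values were 0.3125 for Wfs1, 0.3616 for Pou3f1 and 0.5097 for Rgs14 (limma adjusted p = 0.0495), and Rgs14 had 0.1396 at 12 months (0.0777 scaled to neuronal genes). The APP values between ages became -0.2235 for Fibcd1, -0.2537 for Wfs1, -0.0791 for Pou3f1, -0.1383 for Rgs14 and -0.2603 for Islr2, and the WT values 0.2215 for Wfs1, 0.2318 for Rgs14, 0.1054 for Amigo2 and 0.2074 for Dsp. Other settings gave, between ages in WT, 0.0121 for Wfs1 with array weights, -0.0124 for Pou3f1 scaled to neuronal genes, and 0.0042 for Rgs14 and 0.0032 for Dsp with quantile normalisation. With a library left out, Fibcd1 ran from -0.0297 to 0.281 at 6 months and from -0.0146 to 0.1698 at 12 months, Rgs14 from -0.0968 to 0.0768 and Tspan18 from -0.0684 to 0.1989 at 12 months. Between ages in APP, Fibcd1 ran from -0.0413 to 0.1968, Amigo2 from -0.1477 to 0.0597 and Islr2 from -0.064 to 0.1826. In WT, Fibcd1 ran from -0.055 to 0.254, Wfs1 from -0.2566 to 0.1002, Pou3f1 from -0.1969 to 0.3347, Rgs14 from -0.0925 to 0.0808, Amigo2 from -0.2838 to 0.0098, Prox1 from -0.1006 to 0.2271, Dsp from -0.2885 to 0.1774 and Tspan18 from -0.0302 to 0.2912. Read depth per gene is not known, and groups of 2 or 3 libraries limit what can be called.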
